A study of Mus musculus with 4 samples.

Results

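Transcription factors of neuronal commitment, 8 in all, were followed in neural stem and progenitor cells that were turning into neurons while the DNA repair enzymes PARP1 and PARP2 were inhibited. They are the proneural basic helix-loop-helix (bHLH) factors Neurog2 and Neurod1, the bHLH cofactor Hes6, the zinc finger factors Insm1, Myt1, Myt1l and St18, and the homeobox factor Prox1. They were chosen by name, and all 8 of 8 had a probe set that named the gene alone, 1 each, among 19937 genes measured. Primary neurospheres were grown with fibroblast growth factor-2 and epidermal growth factor from the lateral ventricle walls of C57BL/6 mice aged 9 to 12 weeks. All cells, in both groups, received control (non-targeting) siRNAs and pCLIG-Pax6 virus, were kept floating for 36 h, and were then plated on laminin without growth factors for 10 h. The olaparib group (2 arrays) had 100 nM olaparib in 0.01% DMSO from the time of infection onwards, and the DMSO group (2 arrays) had 0.01% DMSO alone. How many mice went into a replicate and what share of the cells took up the virus are not given in the sources used here.

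Proneural bHLH proteins pair with E proteins on DNA and switch on genes that commit a progenitor to become a neuron. Notch signalling and the Hes and Id proteins hold them back, and Hes6 is a family member known to oppose Hes1. Insm1, Myt1 and Myt1l are zinc finger repressors that act downstream of or beside the proneural factors and shut off progenitor and non-neuronal genes, and St18 belongs to the same family as Myt1. Prox1 is a homeobox factor known for its part in granule neurons of the hippocampus. Pax6 itself is an upstream activator of Neurog2 in the embryonic cortex.

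The median log2 signal over all probe sets was 6.68 and 6.60 on the olaparib arrays and 6.65 and 6.63 on the DMSO arrays. Genes with a mean above 6.42, the 30th percentile, were tested, which left 13956. The test was limma with Benjamini-Hochberg adjustment over all of them, and a gene was called at an adjusted p under 0.05. Every change is the olaparib mean minus the DMSO mean, in log2 units. The labels describe the second sample of each group as a biological replicate of the first, and 2 arrays per group limit the precision. An exact two-sided permutation test of 2 against 2 arrays cannot go below p = 0.333, so each p rests on the spread that limma shares across genes. Genes of tissues unrelated to brain gave a median log2 signal of 6.36, a 75th percentile of 6.72 and a highest value of 7.77 over 23 genes, which shows how high signal can be without specific expression. Stem and progenitor markers were well represented, with Sox2 at 9.55 and 9.63 on the olaparib arrays and 9.78 and 9.85 on the DMSO arrays. The mean log2 signal of the 10 markers of that list was 9.70 and 9.86 with olaparib and 9.84 and 9.87 with DMSO.

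Of the 8 factors, 5 were bright enough to test, and all 5 of those, Myt1, Prox1, Hes6, St18 and Insm1, fell with olaparib, by 0.29 to 0.61 on the log2 scale. In bulk RNA like this, fewer cells of a type and less RNA per cell cannot be told apart. Over all genes tested 3.37% were called lower and 2.84% higher. In each of the 5, both olaparib arrays lay below both DMSO arrays, an arrangement found in 23.9% of all genes tested. The median change was -0.35 over the 5, against 0.0013 over all genes tested. Neurog2, Neurod1 and Myt1l had signal under the filter, and their groups overlapped. These calls depended on how the spread was estimated: in a single limma fit of all 21704 probe sets with a mean above 6.42, 0 of the 5 passed, and 11 genes were lower among all. Adjusted p in that fit was 0.0753 for Myt1, 0.112 for Prox1, 0.190 for Hes6, 0.240 for St18 and 0.243 for Insm1. With 1 array left out, calls among the 5 were lost in some fits, and the number of calls over all genes moved as well. The changes of the 5 then ran from -0.72 for Myt1 to -0.20 for St18. All 5 had an unadjusted p under 0.05 in the gene-level fit, where 9.88% of all genes tested did so in this direction.

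**Figure D1:**
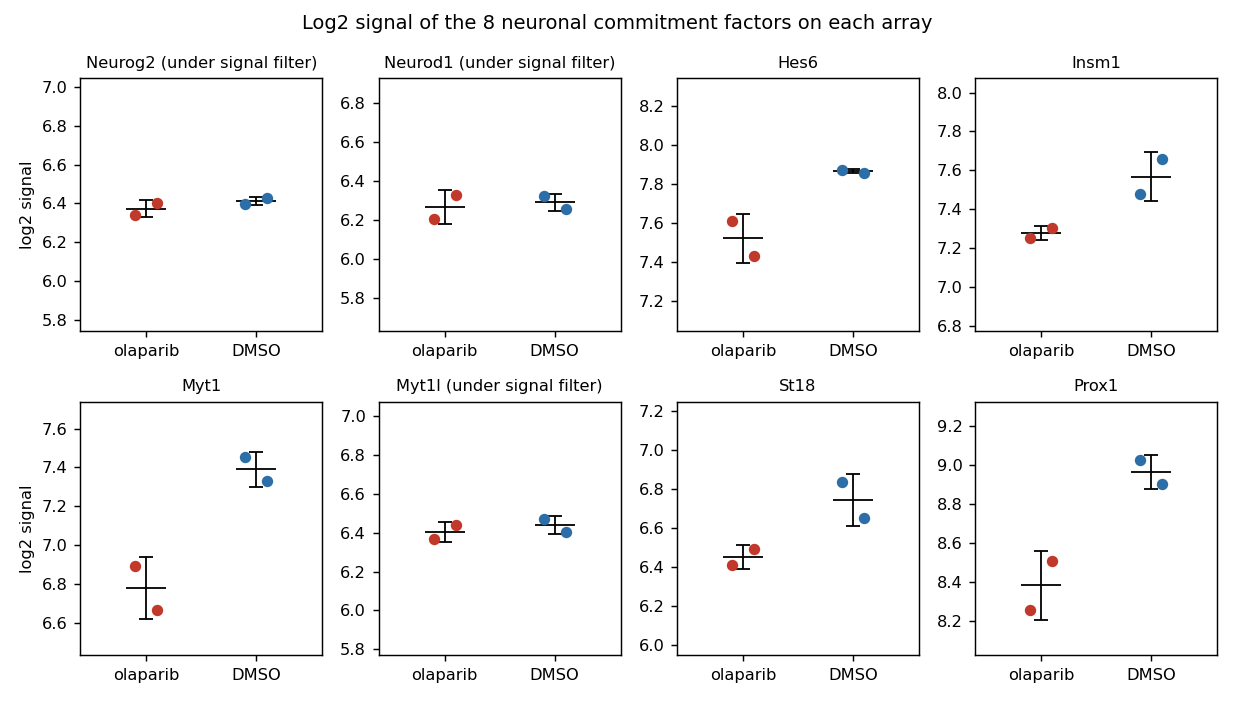
Log2 signal (vertical axis, each panel spanning the same width) of the 8 factors on the 2 olaparib arrays (red) and the 2 DMSO arrays (blue), with the mean and SD as bars. The groups are apart in Hes6, Insm1, Myt1, St18 and Prox1 and overlap in Neurog2, Neurod1 and Myt1l.

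Neurog2, the proneural factor that opens the neuronal programme in cortical progenitors, had log2 signals of 6.34 and 6.40 with olaparib and 6.40 and 6.43 with DMSO. Neurod1, which acts later in differentiating neurons, had 6.20 and 6.33 with olaparib and 6.32 and 6.26 with DMSO. In both genes the arrays overlapped, and all values lay close to the median of the unrelated genes. In a limma fit without the signal filter, Neurog2 had a difference of -0.04 (95% interval -0.17 to 0.09, adjusted p = 0.899) and Neurod1 one of -0.02 (95% interval -0.16 to 0.11, adjusted p = 0.947). At this signal a change in transcript could be hidden, so these intervals describe the probe sets and not the transcripts. No level of either gene could be told from background.

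Hes6, which relieves repression of proneural factors by Hes1, had log2 signals of 7.61 and 7.43 with olaparib and 7.87 and 7.86 with DMSO. The DMSO arrays were close together and the olaparib arrays farther apart, with no overlap. The means were 7.52 ± 0.13 with olaparib and 7.87 ± 0.0098 with DMSO (SD, n = 2 each). Hes6 fell by 0.35 (SE 0.09, limma adjusted p = 0.0218), a ratio of 0.787. Both olaparib arrays lay below the brightest of the unrelated genes, 7.77, which limits the ratio. Hes6 did not pass without the signal filter (limma adjusted p = 0.0564) or under median centring (0.0556). The call was lost without DMSO replicate 1 (adjusted p = 0.194), without DMSO replicate 2 (0.149) and without olaparib replicate 2 (0.0633).

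Insm1, a zinc finger factor that promotes intermediate progenitors and recruits histone-modifying corepressors, had log2 signals of 7.25 and 7.30 with olaparib and 7.48 and 7.66 with DMSO. Here the olaparib arrays were the closer pair, and the lower DMSO array still lay 0.18 above the higher olaparib array. The means were 7.28 ± 0.04 with olaparib and 7.57 ± 0.12 with DMSO (SD, n = 2 each). Insm1 fell by 0.29 (SE 0.08, limma adjusted p = 0.0436), close to the threshold. The call was lost without DMSO replicate 1 (adjusted p = 0.0651) and without DMSO replicate 2 (0.577, change -0.20). Both groups lay below the brightest of the unrelated genes, and the same holds for Myt1 and St18.

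Myt1, Myt1l and St18 form a family of zinc finger proteins that bind AAGTT elements. Myt1, which in mouse represses Notch targets as neurons form, had log2 signals of 6.89 and 6.67 with olaparib and 7.46 and 7.33 with DMSO. The gap between the groups was 0.44, wider than the distance between the arrays of either group. The means were 6.78 ± 0.16 with olaparib and 7.39 ± 0.09 with DMSO (SD, n = 2 each). Myt1 fell by 0.61 (SE 0.09, limma adjusted p = 0.000149). Its olaparib arrays lay near the 75th percentile of the unrelated genes, 6.72, and no ratio is given. Myt1 failed in the fit of all probe sets. It passed without the signal filter (limma adjusted p = 0.00219), under quantile normalization (0.000767) and with eBayes without trend (0.00213). The floor and the mean of probe sets left the values of Myt1 unchanged and were no further check. Its change ran from -0.72 without olaparib replicate 1 to -0.50 without olaparib replicate 2.

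St18, also known as Myt3, had log2 signals of 6.41 and 6.49 with olaparib and 6.84 and 6.65 with DMSO. The olaparib arrays were at about the signal of the filter, and the DMSO arrays a little above it, with no overlap. St18 averaged 6.45 ± 0.06 with olaparib and 6.74 ± 0.13 with DMSO (SD, n = 2 each) and fell by 0.29 (SE 0.08, limma adjusted p = 0.0412). The call was lost without DMSO replicate 1 (adjusted p = 0.829, change -0.20), without DMSO replicate 2 (0.105) and without the signal filter (0.0630). Myt1l, a factor that keeps non-neuronal genes off in neurons, had 6.37 and 6.44 with olaparib and 6.47 and 6.41 with DMSO. Its groups overlapped, at a mean of 6.42, just under the filter. Its difference in the fit without the filter was -0.04 (95% interval -0.17 to 0.10, limma adjusted p = 0.922). In this family Myt1 and St18 were thus called, and Myt1l was not tested in the main fit. Myt1l passed the filter under quantile normalization and with the mean of probe sets. It was not called in either (limma adjusted p = 0.807 and 0.898).

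Prox1, which takes progenitors out of the cell cycle, had log2 signals of 8.26 and 8.51 with olaparib and 9.03 and 8.91 with DMSO. All 4 values lay above the brightest of the unrelated genes, and the groups were 0.40 apart. The means were 8.38 ± 0.18 with olaparib and 8.97 ± 0.09 with DMSO (SD, n = 2 each). Prox1 fell by 0.58 (SE 0.11, limma adjusted p = 0.00225), a ratio of 0.667. Its call was lost without DMSO replicate 1 (adjusted p = 0.0740), and its change ran from -0.71 without olaparib replicate 2 to -0.46 without olaparib replicate 1.

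**Figure D2:**
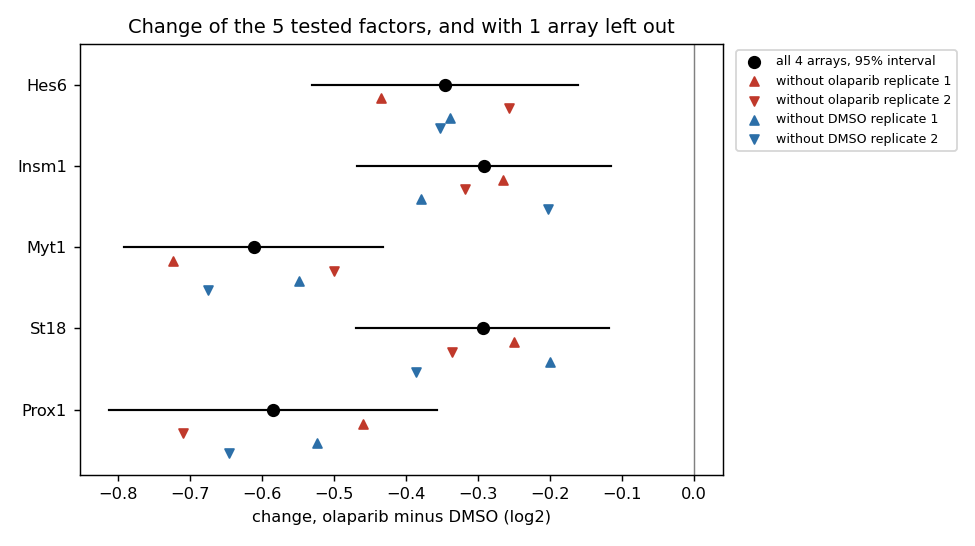
Change with olaparib relative to DMSO (log2, horizontal axis) of the 5 tested factors, with the 95% interval from limma (black) and the change with 1 array left out (triangles: red without an olaparib array, blue without a DMSO array). All points lie below 0, from -0.72 for Myt1 to -0.20 for St18, as they must where both olaparib arrays lie below both DMSO arrays.

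The 5 factors differed in size of change and in which array was lowest. Olaparib replicate 2 had the lower value for Myt1 and Hes6, and olaparib replicate 1 for Prox1, Insm1 and St18. DMSO replicate 1 had the higher value for Myt1, Prox1, Hes6 and St18, and DMSO replicate 2 for Insm1. The 5 therefore did not share 1 pattern between replicates. The 95% intervals of Myt1 (-0.79 to -0.43) and of Prox1 (-0.81 to -0.36) overlapped those of Hes6 (-0.53 to -0.16), Insm1 (-0.47 to -0.12) and St18 (-0.47 to -0.12), and the difference between factors was not tested.

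**Figure D3:**
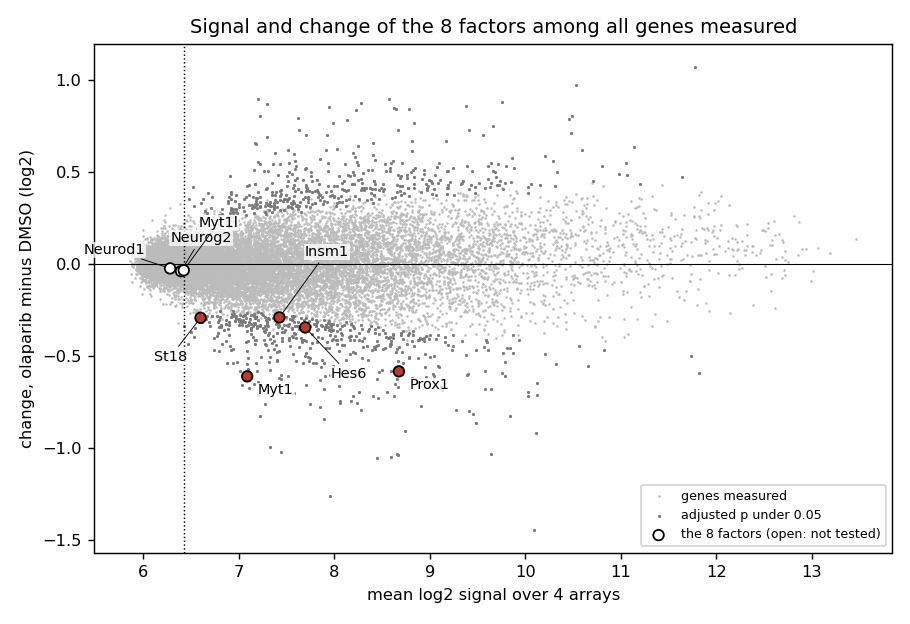
Mean log2 signal over the 4 arrays (horizontal axis) and change with olaparib relative to DMSO (log2, vertical axis) of 19937 genes. The 5 tested factors (red) lie at -0.29 to -0.61, among called genes (dark grey). Neurog2, Neurod1 and Myt1l (open) lie close to 0. Neurog2 and Neurod1 are left of the filter, drawn at its rounded value of 6.42 (dotted line), and Myt1l is at the line.

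The 250 bases before the outermost start of Myt1, Prox1 and Hes6 are shown because these called factors have a promoter entry in RefSeq (GRCm38.p6). Insm1 and St18 have none in the table used. Each runs 5′ to 3′ on the strand of the gene and ends just before the start. Capitals mark CANNTG, the E-box that bHLH proteins bind, which reads as CANNTG on both strands.
Myt1 (chr2:181763082-181763331, + strand): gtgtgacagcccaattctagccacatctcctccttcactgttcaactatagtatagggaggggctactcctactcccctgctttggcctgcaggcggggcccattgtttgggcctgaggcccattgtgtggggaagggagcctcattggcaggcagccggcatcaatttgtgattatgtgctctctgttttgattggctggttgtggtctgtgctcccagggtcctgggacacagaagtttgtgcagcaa
Prox1 (chr1:190170828-190171077, - strand): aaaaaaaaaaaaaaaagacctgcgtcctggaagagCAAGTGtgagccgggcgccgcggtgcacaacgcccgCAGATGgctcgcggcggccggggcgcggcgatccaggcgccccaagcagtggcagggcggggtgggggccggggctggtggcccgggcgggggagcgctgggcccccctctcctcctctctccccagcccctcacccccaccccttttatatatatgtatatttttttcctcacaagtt
Hes6 (chr1:91414039-91414288, - strand): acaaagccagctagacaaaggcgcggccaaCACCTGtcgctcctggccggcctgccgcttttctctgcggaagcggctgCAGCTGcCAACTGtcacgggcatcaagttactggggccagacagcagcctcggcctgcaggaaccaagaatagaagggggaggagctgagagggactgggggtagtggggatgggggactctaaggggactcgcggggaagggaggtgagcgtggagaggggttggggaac

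Prox1 held 2 E-boxes in this window, 1 of them CAGATG, the form that Neurog2 and Neurod1 proteins are known to prefer, starting 179 bases before the start. Hes6 held 3, starting 220, 171 and 164 bases before the start. Myt1 held 0 in this window. At other annotated starts the counts differed: Myt1 held 2 and 1 E-boxes at its other 2, and Hes6 held 1 at its second start. Prox1 held 0 at its second start. CANNTG occurs in 66.2% of the 32851 promoter windows of this length, and CAGATG or its reverse complement CATCTG in 14.4%. CAGATG is itself a CANNTG and is counted within it. The element AAGTT or its reverse complement AACTT was in the windows shown of Myt1, Prox1 and Hes6, 1 each, and in 35.3% of all windows. The second start of Prox1 had 0. CACNAG or CTNGTG, bound by Hes proteins, occurred 2 times in the window shown of Prox1 and 0 times in those of Myt1 and Hes6, and in 36.7% of all windows. At the second start it occurred 0 times in Prox1 and 1 time in Hes6. Which of its starts these cells use was not measured.

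The genes most like each called factor were found by the Euclidean distance between log2 profiles over the 4 arrays, each centred on its own mean, among 13211 named genes. The nearest to Myt1 were Islr (0.0587), Serinc5 (0.0927) and Adamts16 (0.0970). The nearest to Prox1 were Timp3, an inhibitor of matrix metalloproteinases (0.0513), Adcyap1r1, the receptor of the neuropeptide PACAP (0.0616), and Akap5, a kinase anchor protein (0.0836). Around Hes6 lay Brcc3 (0.0332), Cdc25b (0.0354) and Id4 (0.0464). Around Insm1 lay the adhesion molecule gene Nrcam (0.0112), Zfp558 (0.0241) and Xiap (0.0296), and around St18 lay Fjx1 (0.0130), the growth factor receptor gene Fgfr3 (0.0322) and Zdhhc23 (0.0352). Among the called factors themselves, distances ran from 0.219 between Insm1 and Hes6 to 0.432 between Insm1 and Myt1. These cannot be weighed against the distances above, which are the smallest of 13211. The distance also grows with a difference in size of change. Distances over 4 arrays describe these libraries and carry no test.

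Other bHLH factors of the proneural class and their E protein partners had 0 calls in the gene-level limma fit. Of 17 listed, 15 were measured and 8 were bright enough to test, with 0 higher, 0 lower and a median change of 0.0081. Ascl2, Neurod2 and Bhlhe23, at mean log2 signals of 6.45, 6.64 and 6.48, lay below the 75th percentile of the unrelated genes, 6.72. Atoh7 and Atoh8, at 7.23 and 7.42, lay below the brightest of them, 7.77. For these bHLH genes a change in transcript could be hidden, and the lack of calls does not show unchanged expression. At an unadjusted p under 0.05 there was 1, Atoh8, at -0.23 (limma adjusted p = 0.101). The E protein gene Tcf4, which encodes a partner of proneural factors, had log2 signals of 10.13 and 10.36 with olaparib and 10.49 and 10.46 with DMSO, a difference of -0.23 (limma adjusted p = 0.315). Tcf4 was called lower under quantile normalization (adjusted p = 0.0216) and without olaparib replicate 2 (0.0189). The E protein genes Tcf12 and Tcf3 had differences of 0.14 and 0.03, with overlapping groups. Neurog1, like Neurog2, lay under the signal filter. The median of this list was -0.03 without DMSO replicate 2 and 0.05 without DMSO replicate 1. Bhlhe22 was not analysed here.

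Targets and effectors of proneural factors had 3 genes lower, 0 higher and 17 not past the threshold of 20 tested, with a median change of -0.20, and 19 of the 20 changes were negative. In 16 of the 20 both olaparib arrays lay below both DMSO arrays, where all genes tested gave 23.9%, and 12 had an unadjusted p under 0.05 in this direction, where all genes gave 9.88%. Dcx, the microtubule-binding protein of neuroblasts, had log2 signals of 8.02 and 8.12 with olaparib and 9.04 and 9.20 with DMSO, and it alone of the 3 also passed in the limma fit of all probe sets (adjusted p = 0.0448). Dll1, the Notch ligand that proneural factors switch on, had log2 signals of 6.98 and 6.97 with olaparib and 7.19 and 7.44 with DMSO. It fell by 0.34 (SE 0.09, limma adjusted p = 0.0217), a call lost without DMSO replicate 2 (0.512). Cdc25b, a cell cycle phosphatase gene, fell by 0.31 (limma adjusted p = 0.0237), a call that passed only without olaparib replicate 1 when 1 array was left out (adjusted p up to 0.204, without DMSO replicate 1). The ligand gene Dll3, the growth arrest gene Gadd45g and the small GTPase gene Rnd2, known as a target of Neurog2, had differences of -0.28, -0.25 and -0.26 and did not pass (limma adjusted p = 0.0503, 0.0761 and 0.0853). Of this list, 2 genes were lower without DMSO replicate 1, 1 without DMSO replicate 2, and 6 and 7 when olaparib replicate 1 or olaparib replicate 2 was left out.

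Some genes that hold proneural factors back were also lower. Of 14 repressors tested, 5 fell, 0 rose and 9 did not pass, with a median change of -0.10. The Notch receptor gene Notch2 had log2 signals of 7.47 and 7.45 with olaparib and 8.01 and 7.88 with DMSO and fell by 0.49 (SE 0.09, limma adjusted p = 0.00143). Id3, whose product keeps bHLH factors from DNA, fell by 0.65, Id4 by 0.36, Notch1 by 0.38 and Rbpj, the DNA-binding partner of Notch, by 0.37. The calls of Id3, Id4, Notch1 and Rbpj needed both DMSO arrays (limma adjusted p up to 0.0843, 0.309, 0.680 and 0.443 over all their alternatives), and 0 of the 5 passed in the fit of all probe sets. Rest, the repressor of neuronal genes, had log2 signals of 8.07 and 8.14 with olaparib and 7.90 and 7.69 with DMSO, a difference of 0.31 that did not pass (limma adjusted p = 0.0577). Rest was called higher under 4 of its 13 alternatives, the filter at the 50th percentile (adjusted p = 0.0367), quantile normalization (0.0435), robust eBayes (0.0456) and without olaparib replicate 1 (0.0115). Hes5, the Notch effector, had a difference of -0.09 with overlapping groups. The groups also overlapped for Hes1 (0.0035), Hey1 (-0.10) and Heyl (0.01). Hes1, Hes5 and Heyl had mean signals below the brightest of the unrelated genes, 7.77. Without DMSO replicate 1 or DMSO replicate 2, 1 repressor was lower in each case. The median was -0.19 when olaparib replicate 2 was left out. Rbpj also failed without olaparib replicate 1 (limma adjusted p = 0.0696) and with the mean of its probe sets, where its difference was -0.14 (adjusted p = 0.355).

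Corepressors known to bind Insm1 or Myt1 family proteins had 0 calls in limma among 10 tested, with a median change of -0.06 and 2 at an unadjusted p under 0.05. Rcor2, a partner of the histone demethylase Kdm1a, had a difference of -0.28 (limma adjusted p = 0.0572), and Kdm1a itself one of -0.11. Rcor2 was called lower with the filter at the 50th percentile (0.0432) and under median centring (0.0420). The corepressor median ran from -0.11 without DMSO replicate 2 to -0.02 without DMSO replicate 1. It was -0.03 without olaparib replicate 1, and 2 corepressors were lower when olaparib replicate 2 was left out. Other transcription factors of neuronal commitment had 3 lower, 0 higher and 23 not past the threshold of 26 tested, with a median of -0.10. The called genes were Nfia at -0.56, Meis1 at -0.45 and Pou3f4 at -0.41, and each of these calls needed both DMSO arrays. The count lower was 7 without olaparib replicate 2, and the median -0.06 without olaparib replicate 1. Pax6, which the virus also carries, had log2 signals of 9.45 and 9.61 with olaparib and 9.48 and 9.46 with DMSO, with overlapping groups.

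**Figure D4:**
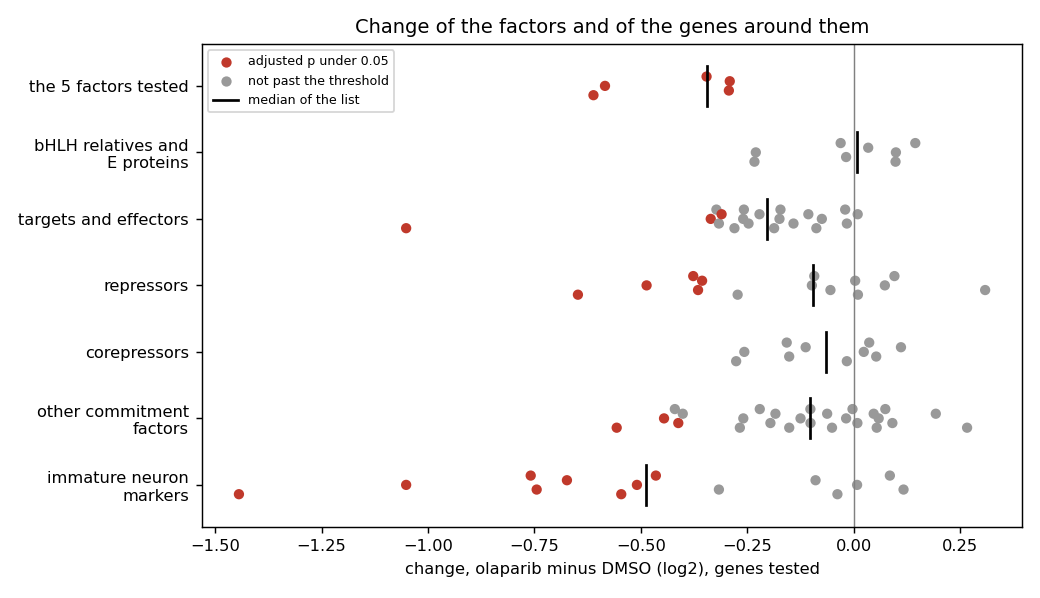
Change with olaparib relative to DMSO (log2, horizontal axis) of the tested genes of each list, 1 point per gene, red where limma's adjusted p was under 0.05, with the list's median as a black line. The median is -0.35 for the 5 tested factors, -0.20 for targets and effectors, 0.0081 for bHLH relatives and E proteins and -0.49 for immature neuron markers. Among the bHLH relatives, Ascl2, Neurod2 and Bhlhe23 had signal near background.

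Of 14 markers of immature neurons tested, 8 fell, 0 rose and 6 did not pass the threshold. Their mean log2 signal over 15 genes was 7.63 and 7.71 on the olaparib arrays and 8.10 and 8.10 on the DMSO arrays. Nrep, a gene of growing neurons, fell by 1.44, and Dcx belongs to this list as well as to the targets. Nrep and Dcx also passed in the limma fit of all probe sets (adjusted p = 0.0448 each), and the other 6 did not (adjusted p from 0.0523 to 0.162). Without DMSO replicate 1 and without DMSO replicate 2 the calls of Map2 and Stmn3 were lost (adjusted p from 0.0973 to 0.317). Of the markers that did not pass, the synaptic genes Snap25 and Syt1 had both olaparib arrays above both DMSO arrays, with differences of 0.12 and 0.09 (limma adjusted p = 0.529 and 0.641). Gad1, Rbfox3 and Elavl3 had differences of -0.04, 0.01 and -0.09 with overlapping groups. Gad1 and Rbfox3, at mean log2 signals of 6.50 and 6.54, lay below the 75th percentile of the unrelated genes, 6.72. Tubb3 had both olaparib arrays below both DMSO arrays, with a difference of -0.32 (limma adjusted p = 0.134). Under quantile normalization Tubb3 was called lower (limma adjusted p = 0.0203). The part of cell numbers in the changes of the 5 factors was not tested.

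Some glial markers also changed beside the 5 factors, and their part in the factors' changes was not tested. Of 7 astrocyte markers tested, 2 fell and 0 rose. Gfap, the astrocyte intermediate filament gene, had log2 signals of 8.89 and 9.35 with olaparib and 10.16 and 10.15 with DMSO and fell by 1.03 (limma adjusted p = 6.12e-05). Aqp4, the water channel gene, had 9.68 and 9.84 with olaparib and 10.47 and 10.48 with DMSO and fell by 0.71 (limma adjusted p = 0.000703). Neither passed in limma's fit of all probe sets (adjusted p = 0.0658 and 0.0700). Aldh1l1, another astrocyte gene, had a difference of -0.01 with overlapping groups. Of 7 oligodendrocyte lineage markers tested, 1 rose and 0 fell. Cspg4, a proteoglycan gene of oligodendrocyte precursors, had 7.36 and 7.42 with olaparib and 7.08 and 7.03 with DMSO (limma adjusted p = 0.0122). The call was lost without DMSO replicate 1 (0.0791), without DMSO replicate 2 (0.186) and in the fit of all probe sets (0.154). Pdgfra, a marker of the same precursors, had a difference of -0.23 and did not pass (limma adjusted p = 0.0945). Microglial markers stayed near background, at a mean log2 signal of 6.46 and 6.36 with olaparib and 6.38 and 6.42 with DMSO over 9 genes, and 0 of 4 tested were called. Markers of vascular cells and fibroblasts had 0 calls of 4 tested, and ependymal markers 0 of 5, with 0 and 2 at an unadjusted p under 0.05 in limma.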

How the data were processed

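Per the labels' protocols, 40 ng of total RNA from each sample went through whole-transcript amplification and biotin labelling, and then onto 1 Affymetrix array. The deposited values are log2 signals made by the authors for each probe set on each array. Their background correction, normalization and probe summary, and any array batches, are not given in the sources used here. The platform annotation gave 1 gene for 21640 of 34760 probe sets, several for 1321 and none for 11799. Of 19937 genes, 19855 matched RefSeq (GRCm38.p6), which gave names and promoter sequences. Where a gene had more than 1 probe set, the one with the highest mean was used.

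Genes above the 30th percentile were tested two-sided in limma 3.58.1 (R 4.3.3) with lmFit and a moderated variance that follows the mean (eBayes, trend=TRUE). The fitting code was also run on data simulated from the means and spread of these arrays, and the outcome is not given here. The 8 factors and all lists were chosen with earlier results of these data known. The text names the 8 factors, called genes of each list by smallest p (up to 5 for pathway lists, up to 2 for marker lists), and the 3 nearest genes of each called factor. Uncalled genes of the lists, Sox2 and Pax6 were named after their values were seen. Alternatives were no filter, a filter at the 50th percentile, a floor at the 10th, quantile normalization, centring on array medians, eBayes without trend, eBayes made robust, all probe sets in 1 fit, the mean of probe sets, and each array left out. A planned comparison of protein sequences was not made. Figures were drawn with matplotlib 3.10.9.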

Additional observations from a re-analysis of the deposited data

How the results depend on the processing

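Of 5 factors called lower, 5 were called under quantile normalization and robust eBayes. The floor on low values and the mean of probe sets also kept 5, but they left the values of these factors unchanged. With the filter at the 50th percentile 4 were called, and St18 was not tested. There were 3 under median centring (Myt1, St18 and Prox1), 3 with eBayes without trend (Myt1, Prox1 and Hes6), 2 without a filter (Myt1 and Prox1) and 0 with all probe sets in the fit. With 1 array left out the number ran from 1 without DMSO replicate 1 (Myt1) to 5. No factor was called higher and none of the 5 changed direction under these alternatives. The direction could not change with 1 array left out, because both olaparib arrays lay below both DMSO arrays in each of the 5. Nor could it under the filter, floor, eBayes and probe set alternatives, which left the change itself as it was. Myt1l was also tested under quantile normalization and with the mean of probe sets, and was not called. Over all genes, 257 were called higher without a filter and 774 lower under quantile normalization. With all probe sets in the fit 1 was higher and 11 were lower. With 1 array left out 97 to 1274 were higher and 161 to 1032 lower. In these 4 fits the spread comes from the pair that stays whole. Without DMSO replicate 1, without DMSO replicate 2 and under median centring, limma used only the spread shared across genes. The spread of each single gene had no weight there. The median SD was 0.077 for olaparib and 0.048 for DMSO, so a fit with 1 DMSO array uses the wider spread. No paired analysis was possible because the labels tie no olaparib sample to a DMSO sample. Signal near background limits Neurog2, Neurod1, Myt1l and St18, and Myt1 with olaparib.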
